A study of Mus musculus with 22 samples.

Results

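The genes described here were 50 interferon-stimulated genes, listed by symbol from those that interferons are known to induce in mouse cells, and read in CD4+ T cells sorted from lymph nodes of treated scurfy mice. All 50 were found among the 55011 genes of the count table, and all 50 were among the 15462 genes with enough counts to be tested. The list holds 2 receptor chains, 5 transcription factors, 6 nucleic acid sensors, 2 genes of ISG15 conjugation, 16 IFIT, OAS and other antiviral effectors, 9 interferon-inducible GTPases, 3 antigen processing genes and 7 others. RNA was measured by Smart-seq, a full-length cDNA method for few cells, in 22 libraries of 3 groups. In the FOXP3 group (5 codes), lymph node CD4+ T cells of scurfy animals, which lack a working Foxp3 gene, carried a vector with human FOXP3 and the surface reporter LNGFR. The WT Treg group (3 codes) held CD4+CD25+ cells of CD45.1 donors. In the LNGFR group (3 codes), scurfy CD4+ T cells carried the vector with the reporter alone. All recipients were scurfy mice aged 10 days when they received cyclophosphamide (50 mg/kg). They were injected with the cells on day 14 and then with human IL-2, 1000 IU per g of weight each day for 5 days and once a week after that. LNGFR+ or CD45.1 CD4+ T cells were sorted on day 50. Every sample, WT Treg included, carries the label of strain C57BL/6 and of the scurfy FOXP3 knockout genotype, and what that label describes for WT Treg is not stated. Human FOXP3 in mouse T cells, a different sort marker for WT Treg, and hosts that received drug and cytokine limit what the groups model.

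A sample title ends in a code, such as F1 or G4, and in library 1 or 2, and the 2 libraries of a code were summed. Whether each code stands for 1 mouse is not stated. The p-values set the difference between groups against the spread among codes within groups, and cover no other variation. FOXP3 codes are named F or N, WT Treg codes E, G or L and LNGFR codes G, and what letters and digits stand for was not stated. FOXP3 shares no letter with the other groups, so its group and its letters cannot be told apart, whereas G4 of WT Treg shares a letter with all LNGFR codes. Libraries held 332570 to 5453375 counts, of which the 50 genes took 0.175% to 1.11%. Both libraries of E2 (WT Treg) and library 2 of G1 (LNGFR) were the 3 smallest, with 29.1% to 58.7% of counts on repeat-like gene models, against at most 4.5% elsewhere. Between the 2 libraries of a code, log2 values of the 50 genes correlated at 0.961 to 0.993 (Pearson, across genes, which are not independent replicates), except at 0.887 in E2 and 0.626 in G1. All 8 T-cell markers listed, Cd3e and Cd4 among them, were detected in every group. Their summed level was 3800 to 6072 CPM in FOXP3, 2507 to 6435 CPM in WT Treg and 5380 to 7156 CPM in LNGFR codes. Levels are given as CPM, counts per 1000000 counts after TMM scaling, which corrects library totals for composition, and levels of different genes are compared only as CPM per kb of exon. In such bulk samples, fewer cells that express a gene and less RNA of it per cell cannot be told apart. Reads carried no molecular identifiers, so limits set from counts cover counting error only.

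Interferons are cytokines of antiviral defence. Type I interferons bind the receptor chains IFNAR1 and IFNAR2 and lead to a complex with IRF9, which binds the interferon-stimulated response element (ISRE) in promoters, while interferon-gamma acts through gamma-activated sites (GAS). T cells make interferon-gamma and respond to both kinds, and low interferon signalling in resting lymphocytes keeps many of these genes expressed without infection.

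Promoters of 38 of the 50 genes were in the RefSeq table used (build GRCm38.p6, 250 bases before to 50 after the start). Dhx58, Zbp1, Ifi204, Usp18, Mx1, Oas2, Gbp4, Iigp1, Ifi27l2a, Parp9, Parp14 and Rtp4 had no entry. The ISRE was searched as GAAANNGAAA and, for the other strand, TTTCNNTTTC, and overlapping matches were all counted. It was found in 19 of the 38 promoters (50.0%), against 943 of all 27025 promoters in the table (3.49%). The GAS, TTCNNNGAA, which reads the same on both strands, was found in 15 of the 38 (39.5%) against 8.47% of all promoters, and 6 held both (15.8% against 0.514%). With a spacer of 1 or 2 bases between the GAAA parts of the ISRE, 22 of the 38 matched (57.9%), against 6.32% of all. By role, the ISRE was found in 9 of 14 antiviral effectors and 6 of 7 GTPases with a promoter, and in 0 of 2 receptor chains and 0 of 3 antigen processing genes. A match is a run of letters and does not show that a factor binds there. The promoters below belong to genes whose levels are described in full: Gbp3 and Eif2ak2, among those with the smallest p against LNGFR, Ifit1 and Isg15, among the genes that varied most between codes (Isg15 with no count in E2), and Irf1, with a GAS and no ISRE. All run 5′ to 3′ along the gene, and capitals mark every ISRE and GAS match.
Gbp3, chr3:142559794-142560093, plus strand: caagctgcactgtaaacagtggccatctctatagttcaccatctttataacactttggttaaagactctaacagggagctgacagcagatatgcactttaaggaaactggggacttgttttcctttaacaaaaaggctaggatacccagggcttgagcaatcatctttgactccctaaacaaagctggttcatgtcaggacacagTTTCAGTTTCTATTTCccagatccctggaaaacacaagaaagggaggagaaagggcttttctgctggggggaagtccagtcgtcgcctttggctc
Eif2ak2, chr17:78882523-78882822, minus strand: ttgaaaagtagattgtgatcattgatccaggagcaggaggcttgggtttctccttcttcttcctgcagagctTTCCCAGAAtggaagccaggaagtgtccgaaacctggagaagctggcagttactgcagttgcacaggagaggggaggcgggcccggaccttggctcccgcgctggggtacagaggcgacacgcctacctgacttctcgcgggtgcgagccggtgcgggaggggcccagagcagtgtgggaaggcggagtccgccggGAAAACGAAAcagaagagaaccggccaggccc
Ifit1, chr19:34640639-34640938, plus strand: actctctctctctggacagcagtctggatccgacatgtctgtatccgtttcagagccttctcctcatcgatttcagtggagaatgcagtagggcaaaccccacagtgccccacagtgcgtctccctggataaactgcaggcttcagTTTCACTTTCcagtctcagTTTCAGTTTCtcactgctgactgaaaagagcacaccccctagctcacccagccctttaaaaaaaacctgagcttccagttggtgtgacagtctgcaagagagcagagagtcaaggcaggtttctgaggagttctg
Isg15, chr4:156200769-156201068, minus strand: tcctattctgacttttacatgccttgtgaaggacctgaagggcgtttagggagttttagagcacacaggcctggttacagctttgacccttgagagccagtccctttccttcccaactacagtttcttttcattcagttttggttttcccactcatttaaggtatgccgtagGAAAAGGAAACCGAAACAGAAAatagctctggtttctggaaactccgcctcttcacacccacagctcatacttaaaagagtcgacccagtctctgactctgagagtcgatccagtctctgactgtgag
Irf1, chr11:53769764-53770063, plus strand: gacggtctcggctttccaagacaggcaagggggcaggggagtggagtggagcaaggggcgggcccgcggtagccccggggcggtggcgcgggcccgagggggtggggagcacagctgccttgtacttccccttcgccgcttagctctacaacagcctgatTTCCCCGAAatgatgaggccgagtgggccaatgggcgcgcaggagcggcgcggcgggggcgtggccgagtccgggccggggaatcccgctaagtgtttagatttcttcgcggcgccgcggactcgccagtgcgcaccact
The ISRE matches of Isg15 and of Gbp3 overlap each other and form 1 run of capitals, whereas Ifit1 holds 2 separate ones. The run in Gbp3 begins 45 bases before the start and the first match of Isg15 78 bases before it. In Eif2ak2 the ISRE lies after the start, and the first run of capitals is a GAS.

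The first question was whether cells with human FOXP3, or wild-type regulatory T cells, held other levels of interferon-stimulated genes than cells with the reporter alone. No gene of the 50 was called in any of the 3 comparisons (edgeR, quasi-likelihood test, Benjamini-Hochberg adjusted p under 0.05 over 15462 genes). In FOXP3 against LNGFR, 0.168% of all genes tested were called higher and 0.375% lower. In WT Treg against LNGFR the background was 0.627% higher and 0.673% lower, and in FOXP3 against WT Treg it was 0.136% higher and 0.123% lower. At an unadjusted p under 0.05, 4 of the 50 (8%) passed in FOXP3 against LNGFR, where 10.3% of all genes did. In number, 4 of the 50 also passed in WT Treg against LNGFR (background 14.8%) and 3 of 50 (6%) in FOXP3 against WT Treg (background 16.5%). DESeq2 called 1 of the 50, Gbp3, in FOXP3 against LNGFR, where it called 2.65% of all genes. It called Eif2ak2, Ifi44 and Oas1a in WT Treg against LNGFR (background 4.95%) and Ifi44 in FOXP3 against WT Treg (background 7.19%). limma voom with sample weights called Eif2ak2, Gbp3 and Ifi204 in FOXP3 against LNGFR (background 6.78%), Eif2ak2 and Gbp3 in WT Treg against LNGFR (background 5.61%), and Ifi204 and Ifi44 in FOXP3 against WT Treg (background 6.89%). The shares called by each tool are near or under the background.

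The direction of the fold changes was less even than over all genes. In FOXP3 against LNGFR, 39 of the 50 (78%) had a log2 fold change above 0, against 48.9% of all genes, and their median was 0.37, against -0.02 over all genes. Of the 50, 32 (64%) in WT Treg against LNGFR were above 0, against 54.9%, with a median of 0.33 against 0.08. In FOXP3 against WT Treg, 29 (58%) were above 0, against 50.4%, with a median of 0.03 against 0.01. The first and second of these comparisons share the LNGFR codes. These medians depend on single codes, on the tool and on the scaling, which changed the sign of the median only in FOXP3 against WT Treg. DESeq2 gave 0.31 in both comparisons with LNGFR. With limma voom the median was 0.17 in FOXP3 against LNGFR, with 34 above 0. It was 0.04 in WT Treg against LNGFR, with 26 above 0, and voom gave the same 0.04 over all genes there. In edgeR without G1, the median was 0.19 in FOXP3 against LNGFR, with 35 above 0. For WT Treg against LNGFR it was then 0.04, with 27 above 0. Without F2 it was 0.21 in FOXP3 against LNGFR, and without G3 0.61 there and 0.54 in WT Treg against LNGFR. Without E2 it was 0.55 in WT Treg against LNGFR and -0.18 in FOXP3 against WT Treg, where 10 of the 50 were then above 0. The last comparison also had a median below 0 with size factors (-0.0026), with upper-quartile scaling (-0.06) and without F2 (-0.06). Upper-quartile scaling moved the median of all genes to -0.25 in FOXP3 against LNGFR, where that of the 50 was 0.14. Among codes of letter G, in which WT Treg is G4 alone and is assumed to vary like LNGFR codes, the median of WT Treg against LNGFR was 0.92, against -0.10 over all genes. The FOXP3 codes were all higher than any LNGFR code in 7 of the 50 (14%), against 4.35% of all genes: Irf9, Dhx58, Ifi204, Eif2ak2, Samhd1, Gbp3 and Tap1. In 0 of the 50 did all FOXP3 codes lie below all LNGFR codes, against 4.67% of all genes. WT Treg codes all lay above LNGFR codes in 2 of the 50, Oas1a and Eif2ak2, against 7.8% of all genes, and all below in 0, against 8.82%. FOXP3 codes all lay above WT Treg codes in 0 (background 6.12%) and all below in 1, Ifi44 (background 6.25%).

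**Figure D1:**
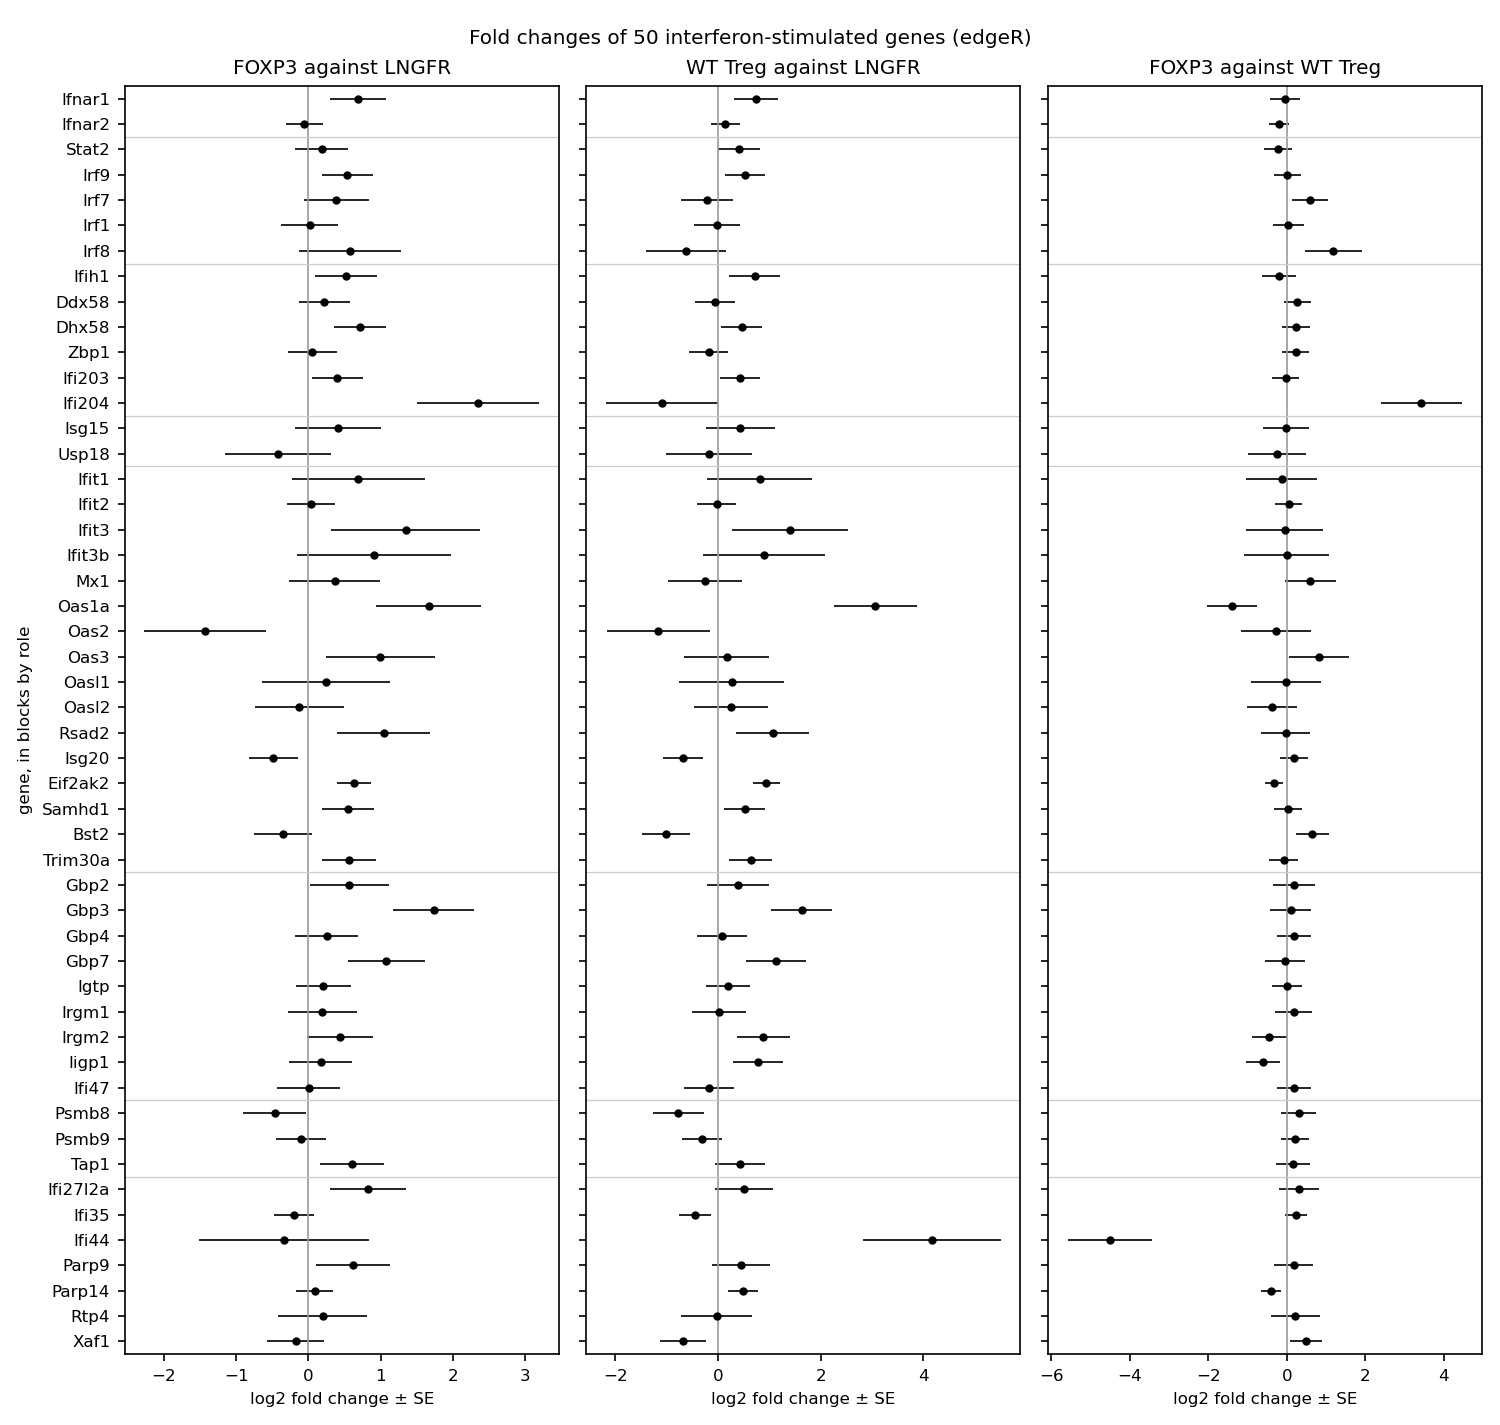
Log2 fold changes (x axis) of the 50 interferon-stimulated genes (y axis, in blocks by role) in 3 comparisons, each panel with its own scale; points are edgeR estimates from codes and bars are 1 SE. In FOXP3 against LNGFR 39 of 50 points lie above 0, and Ifi44 in the comparisons with WT Treg has the estimates farthest from 0 (4.16 and -4.51).

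Ifnar1 and Ifnar2, which encode the chains of the type I interferon receptor, were expressed in every code. Ifnar1 had 166, 214, 205, 207 and 150 CPM in the FOXP3 codes F1, F2, F5, N2 and N3, an order kept below, 155, 220 and 209 CPM in the WT Treg codes E2, G4 and L1, and 39.7, 149 and 161 CPM in the LNGFR codes G1, G2 and G3. G1 was far below every other code, G2 was just below the lowest FOXP3 and WT Treg codes, and G3 lay within their ranges. The log2 fold change was 0.69 ± 0.39 (SE) in FOXP3 against LNGFR (edgeR, adjusted p 0.596) and 0.74 ± 0.43 in WT Treg against LNGFR (adjusted p 0.426). Ifnar2 averaged 74.4 ± 9.11 CPM in FOXP3 (SD, n = 5), 84.5 ± 26.7 CPM in WT Treg and 77.3 ± 8.72 CPM in LNGFR (n = 3 each). Its log2 fold change in FOXP3 against WT Treg was -0.20 ± 0.25 (adjusted p 0.733).

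Irf9 encodes the DNA-binding part of the complex that reads type I interferon signals. It had 153, 195, 161, 157 and 165 CPM in FOXP3 codes, 98.7, 226 and 164 CPM in WT Treg codes and 54.5, 137 and 150 CPM in LNGFR codes. Every FOXP3 code was above every LNGFR code, F1 and G3 by little, and the log2 fold change of 0.54 ± 0.35 did not pass (edgeR, adjusted p 0.656). Irf1, a factor that binds similar elements and is itself induced through a GAS, averaged 289 ± 50.6 CPM in FOXP3, 281 ± 75.9 CPM in WT Treg and 285 ± 177 CPM in LNGFR. Irf8, a factor of B cells and myeloid cells, had 47.8, 76.0, 65.6, 37.8 and 412 CPM in FOXP3 codes, 23.7, 77.6 and 62.5 CPM in WT Treg codes and 111, 76.5 and 71.6 CPM in LNGFR codes. Code N3 alone held the high value. The summed level of 12 B-cell markers was 5517 CPM in N3, 148 to 627 CPM in the other FOXP3 codes, 144 to 248 CPM in WT Treg and 563 to 1633 CPM in LNGFR, with none of the 12 at 0 in any group, and their part in the Irf8 level was not tested. Without N3 the log2 fold change of Irf8 in FOXP3 against WT Treg was -0.000943, and with it 1.19 ± 0.73 (adjusted p 0.459).

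Among the sensors, Ifi204, a cytosolic and nuclear DNA sensor of the HIN-200 family, differed most. It had 41.7, 40.3, 30.5, 53.4 and 11.3 CPM in FOXP3 codes, 15.8, 1.94 and 0.533 CPM in WT Treg codes and 0.672, 9.44 and 9.71 CPM in LNGFR codes. All FOXP3 codes were above all LNGFR codes, and N3 alone fell within the WT Treg range, below E2. The value of E2 rests on 8 and 4 counts in its libraries, that of L1 on 3 and 1 and that of G1 on 1 and 1. The log2 fold change was 2.35 ± 0.84 in FOXP3 against LNGFR (edgeR, adjusted p 0.324), 3.44 ± 1.04 in FOXP3 against WT Treg (adjusted p 0.118) and -1.09 ± 1.09 in WT Treg against LNGFR (adjusted p 0.673). Without E2, the log2 fold change in FOXP3 against WT Treg was 4.87 and passed. Ifi204 is also expressed by macrophages, and the summed level of 12 myeloid markers was 155 to 242 CPM in FOXP3, 90.8 to 229 CPM in WT Treg and 161 to 483 CPM in LNGFR, with none at 0 in any group. Of the 38-base words of the Ifi204 transcripts, 27.5% occur in another gene, most of them in Ifi211, so its reads may be split between copies. The RNA sensor Ifih1 (MDA5) averaged 22.9 ± 8.52 CPM in FOXP3, 26.1 ± 11.2 CPM in WT Treg and 15.6 ± 9.22 CPM in LNGFR. Zbp1, a sensor of Z-form nucleic acid and the sensor with the highest CPM per kb, averaged 103 ± 14.3 CPM, 86.1 ± 47.0 CPM and 99.3 ± 22.7 CPM in FOXP3, WT Treg and LNGFR.

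Isg15 encodes a ubiquitin-like protein attached to other proteins, and Usp18 the protease that removes it and damps the type I receptor. Isg15 had 14.7, 17.6, 10.6, 8.72 and 6.42 CPM in FOXP3 codes, 0, 22.2 and 9.46 CPM in WT Treg codes and 11.4, 5.76 and 9.23 CPM in LNGFR codes. No read of it was counted in either library of E2, where 3 counts would have been 3.95 CPM, and the groups overlapped throughout. Usp18 had 28.3, 27.4, 6.79, 5.60 and 12.7 CPM in FOXP3 codes, 3.95, 45.3 and 3.86 CPM in WT Treg codes and 25.9, 14.9 and 24.3 CPM in LNGFR codes. F1 and F2 were high among FOXP3 codes, and G4 was more than 10-fold above both other WT Treg codes. Neither gene passed in any comparison (edgeR, smallest adjusted p 0.808).

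Eif2ak2, the kinase PKR, which halts translation on sensing double-stranded RNA, was the antiviral gene with the least spread. It had 37.6, 41.2, 34.2, 31.9 and 28.4 CPM in FOXP3 codes, 38.2, 55.3 and 34.8 CPM in WT Treg codes and 23.5, 21.1 and 22.7 CPM in LNGFR codes. All LNGFR codes, G1 included, lay close together and below every other code. The log2 fold change was 0.63 ± 0.23 in FOXP3 against LNGFR (edgeR, adjusted p 0.349) and 0.94 ± 0.26 in WT Treg against LNGFR (adjusted p 0.129). Oas1a, which makes the oligoadenylates that activate RNase L, had 3.05, 21.9, 7.33, 5.29 and 9.15 CPM in FOXP3 codes, 6.58, 47.9 and 15.98 CPM in WT Treg codes and 4.37, 1.12 and 3.60 CPM in LNGFR codes. Every WT Treg code was above every LNGFR code, and FOXP3 codes overlapped both groups. Its log2 fold change was 3.06 ± 0.81 in WT Treg against LNGFR (adjusted p 0.104), 1.66 ± 0.73 in FOXP3 against LNGFR (adjusted p 0.453) and -1.40 ± 0.63 in FOXP3 against WT Treg (adjusted p 0.287). Of its 38-base words, 64.4% are shared with Oas1g, so the level may include reads of that gene. Bst2 (tetherin), which holds budding virions at the cell surface and had the highest CPM per kb among antiviral effectors, averaged 75.0 ± 15.2 CPM in FOXP3, 46.0 ± 32.3 CPM in WT Treg and 96.0 ± 42.2 CPM in LNGFR.

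The IFIT genes, whose proteins bind foreign RNA, varied widely within groups. They were singled out here after their values were seen. Ifit1 had 55.2, 61.3, 13.5, 22.2 and 23.7 CPM in FOXP3 codes, 9.21, 96.4 and 3.86 CPM in WT Treg codes and 2.69, 24.2 and 37.2 CPM in LNGFR codes. Ifit3 had 31.0, 30.8, 5.28, 10.3 and 9.69 CPM in FOXP3 codes, 11.8, 40.6 and 0.266 CPM in WT Treg codes and 1.01, 7.20 and 11.4 CPM in LNGFR codes. For both genes F1 and F2 were high in FOXP3 and G4 in WT Treg, and Ifit3 rested on 121 and 130 counts in the libraries of G4 and on 0 and 2 in those of L1. Of the words of Ifit3, 57.3% are shared with Ifit3b, which had a lower level in every code. The group means of Ifit3 were 17.4 ± 12.5 CPM in FOXP3, 17.6 ± 20.8 CPM in WT Treg and 6.53 ± 5.22 CPM in LNGFR, and its log2 fold change in FOXP3 against LNGFR was 1.35 ± 1.03 (edgeR, adjusted p 0.696).

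**Figure D2:**
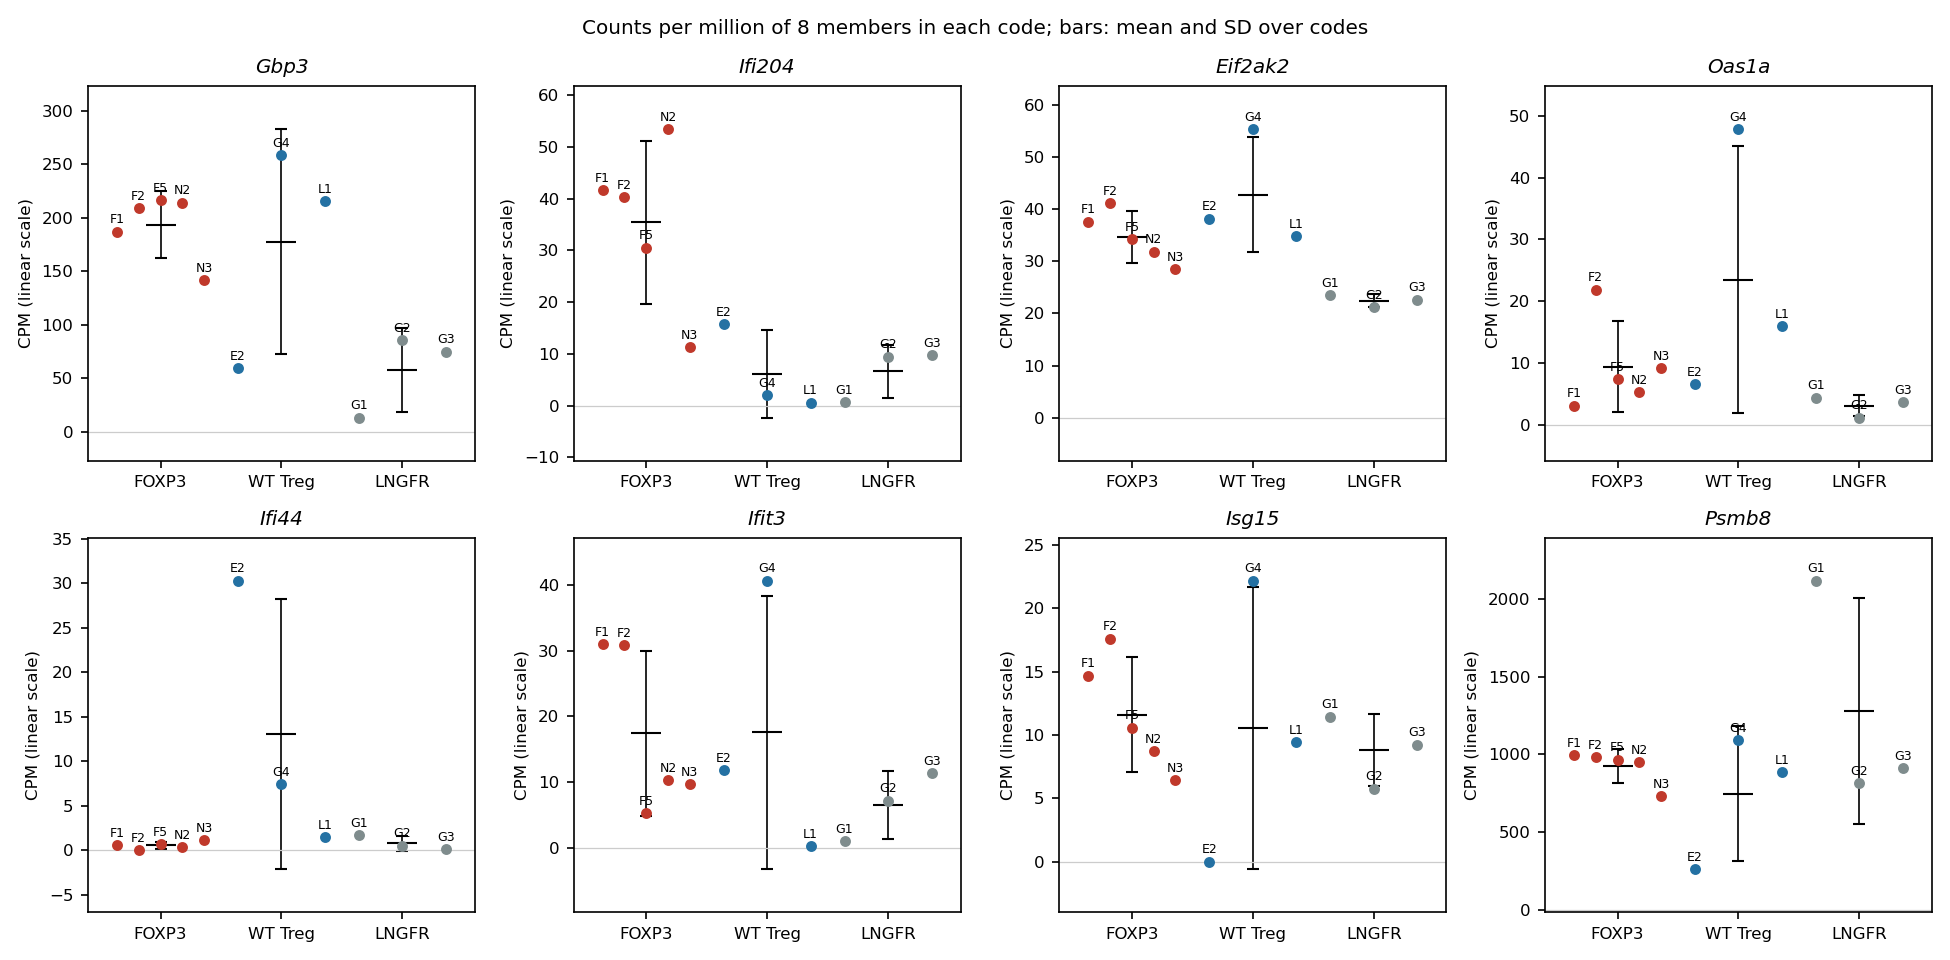
CPM (y axes, linear scale, 1 scale per gene) of 8 interferon-stimulated genes in the codes of FOXP3, WT Treg and LNGFR (x axis); points are codes and bars the mean ± SD over codes. The means of Gbp3 and Eif2ak2 are lowest in LNGFR and that of Ifi204 is highest in FOXP3, and code G4 has the highest WT Treg value for 6 of the 8 genes, Ifi204 and Ifi44 being highest in E2.

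The guanylate-binding proteins and immunity-related GTPases attack vacuoles of intracellular microbes and are induced above all by interferon-gamma. All 9 listed had a log2 fold change above 0 in FOXP3 against LNGFR and 8 of 9 in WT Treg against LNGFR. In either, 0 were called by edgeR, and Gbp3 was called by other tools as given above. The mean log2 CPM of the 9 was 5.53 in G1, 7.43 in G2 and 7.60 in G3. It was 7.13 to 7.86 in FOXP3 codes and 6.50, 8.27 and 7.65 in WT Treg codes. G2 and G3 lay within both ranges, and the fold changes include the low level of G1. Gbp3 had 187, 209, 217, 214 and 141 CPM in FOXP3 codes, 59.2, 259 and 216 CPM in WT Treg codes and 13.1, 85.5 and 74.7 CPM in LNGFR codes. Each FOXP3 code exceeded each LNGFR code, and so did G4 and L1, whereas E2 lay within the LNGFR range. The gene is at chr3:142560026-142573209 (GRCm38, plus strand, GENCODE M21). Its log2 fold change was 1.74 ± 0.56 in FOXP3 against LNGFR (edgeR, adjusted p 0.232, the smallest of the 50 in this comparison) and 1.63 ± 0.60 in WT Treg against LNGFR (adjusted p 0.247). Gbp7, its neighbour on chromosome 3, chosen after its values were seen, averaged 415 ± 85.3 CPM in FOXP3, 429 ± 251 CPM in WT Treg and 197 ± 125 CPM in LNGFR. Iigp1 averaged 92.8 ± 24.5 CPM in FOXP3, 140 ± 86.8 CPM in WT Treg and 82.2 ± 43.6 CPM in LNGFR, with 239 CPM in G4 and at most 119 CPM in every other code. Ifi47, an immunity-related GTPase with the highest CPM per kb among the 9, averaged 560 ± 110 CPM in FOXP3, 493 ± 281 CPM in WT Treg and 558 ± 249 CPM in LNGFR.

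Psmb8, Psmb9 and Tap1 encode immunoproteasome subunits and a peptide transporter for antigen presentation by MHC class I. Psmb8 had 994, 981, 966, 952 and 732 CPM in FOXP3 codes, 262, 1094 and 888 CPM in WT Treg codes and 2118, 814 and 911 CPM in LNGFR codes. Apart from the lowest value in E2 and the highest in G1, the codes lay between 732 and 1094 CPM. Tap1 averaged 749 ± 75.8 CPM in FOXP3, 664 ± 247 CPM in WT Treg and 492 ± 297 CPM in LNGFR, where G1 had 149 CPM. The log2 fold change of Tap1 was 0.61 ± 0.44 in FOXP3 against LNGFR (edgeR, adjusted p 0.682). In G1, the 25 members with exons shorter than the median of 3.86 kb had a median log2 deviation from the other LNGFR codes of -0.10, and the 25 longer ones -1.39, while over all genes the values were 0.33 and -0.30. Other codes differed with gene length as well. Across 15151 genes, the Spearman correlation between exon length and the deviation of a code from its group was -0.155 in G1, -0.239 in F1, -0.247 in G4, -0.217 in L1 and 0.251 in E2. The part of gene length in the fold changes was not tested.

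Ifi27l2a, a small interferon-induced protein, had the highest level of the 50 per length, at 1288 CPM per kb over all codes, against 0.654 CPM per kb for Ifi44, the lowest. Ifi27l2a had 782, 1164, 644, 714 and 297 CPM in FOXP3 codes, 221, 1053 and 460 CPM in WT Treg codes and 579, 246 and 398 CPM in LNGFR codes, and the groups overlapped. Ifi44, a protein induced by type I interferon, had 0.587, 0, 0.647, 0.311 and 1.09 CPM in FOXP3 codes, 30.3, 7.44 and 1.46 CPM in WT Treg codes and 1.68, 0.480 and 0.120 CPM in LNGFR codes. Every WT Treg code was above every FOXP3 code, L1 by little, and L1 lay within the LNGFR range. In E2 the level rests on 4 counts in library 1 and 19 in library 2, and in F2 on none, where 3 counts would have been 0.279 CPM. The log2 fold change was -4.51 ± 1.08 in FOXP3 against WT Treg (edgeR, adjusted p 0.0842) and 4.16 ± 1.34 in WT Treg against LNGFR (adjusted p 0.187).

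Codes of the same group differed widely. The highest value was at least 2-fold above the lowest in 21 of the 50 genes among FOXP3 codes, in 42 among WT Treg codes and in 36 among LNGFR codes, and at least 10-fold above it in 5, 12 and 5. The share of all genes with such ranges was not counted, and the groups differ in their number of codes. The weak code E2 was the lowest of WT Treg in 35 of the 50, against 51% of all genes. G1 was the lowest of LNGFR in 32, against 44.7% of all genes. The SD of log2 CPM among codes within groups had a median of 0.72 over the 50 genes (0.23 for Eif2ak2 to 1.97 for Ifit3), against 0.60 over all genes. Between the 2 libraries of a code, without E2 and G1, the median SD was 0.18 over the 50 genes and 0.34 over all genes. With E2 and G1 left out of the spread among codes too, its median was 0.42 over the 50 genes and 0.35 over all genes, and it exceeded the spread between libraries in 47 of the 50, against 56.6% of all genes. With all codes in both, the median SD between libraries was 0.53, and the spread among codes was the larger in 37 of the 50, against 53.6% of all genes. By role, the median SD among codes was 1.51 for ISG15 conjugation, 1.09 for antiviral effectors, 0.78 for the GTPases, 0.69 for antigen processing and 0.45 for the receptor chains. The ISG15 role holds 2 genes, and the spread of Isg15 includes its 0 counts in E2, where 3 counts would have been 3.95 CPM.

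**Figure D3:**
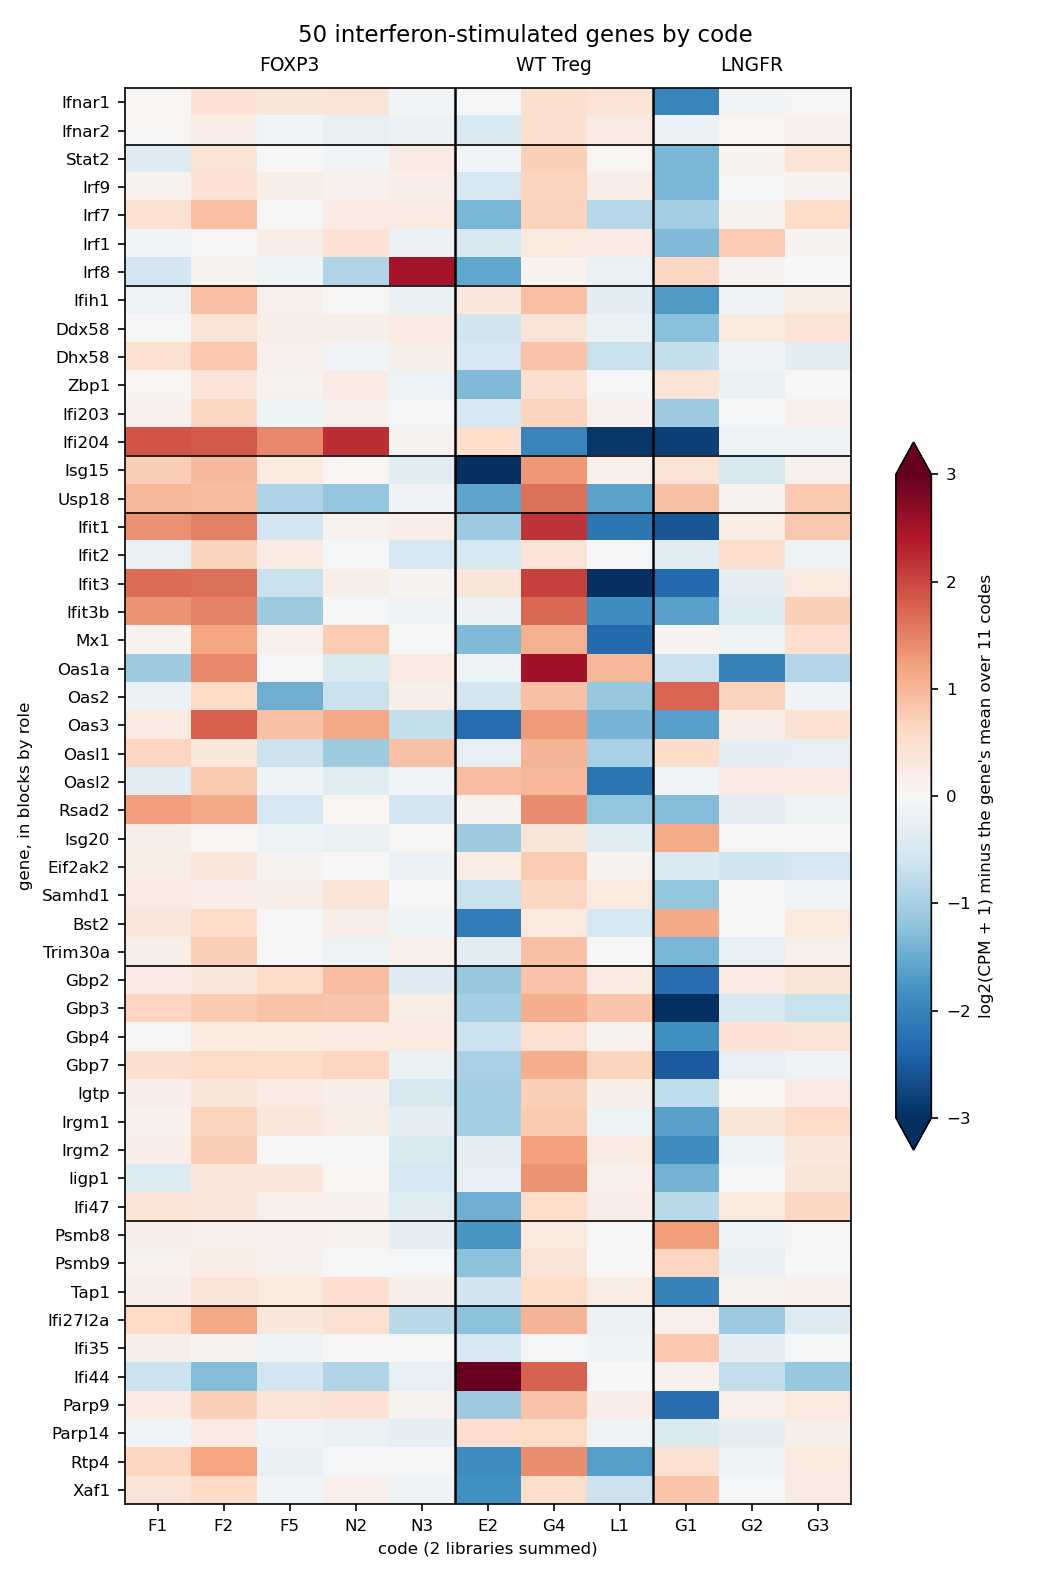
log2(CPM + 1) minus each gene's mean over the 11 codes (colour, scale cut at ±3) for the 50 interferon-stimulated genes (rows, in blocks by role) in the codes of FOXP3, WT Treg and LNGFR (columns). Column G4 is above the mean for most rows, and the antiviral rows change most between columns.

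In WT Treg, G4 was the highest code in 48 of the 50 genes, the exceptions being Ifi204 and Ifi44, whereas 31.9% of all genes were highest there. G4 was at least 2-fold above the mean log2 level of the other WT Treg codes in 33 of the 50 (66%), against 9.58% of all genes, E2 in 4 (background 25.4%) and L1 in 1 (background 8.61%). E2 was at least 2-fold below the other codes in 25 (50%), against 26.8% of all genes. G4 and L1 were both well covered, and both libraries of G4 exceeded both libraries of L1 in 46 of the 50 (92%), against 19.5% of all genes. The opposite held in 0 of the 50, against 23.4% of all genes. The ratio of G4 to L1 had a median of 1.70 over the 50 genes and 0.983 over genes with at least 1 CPM in L1. By role its median was 7.18 for antiviral effectors, 7.03 for ISG15 conjugation, 1.98 for sensors, 1.43 for the GTPases, 1.25 for antigen processing and 1.12 for the receptor chains. Usp18 had 42.8 and 47.9 CPM in the libraries of G4, against 4.63 and 3.23 CPM in those of L1. The summed level of 7 regulatory T cell markers was 5543 CPM in G4 and 5360 CPM in L1, and that of 12 B-cell markers 248 and 144 CPM, and their part in the difference was not tested. The deviation of G4 had a median of 1.47 in the 25 shorter members and 0.87 in the 25 longer ones on the log2 scale, against 0.32 and -0.01 over all genes, and the part of gene length in it was not tested. Of the 50 genes, 31 had their highest level of all 11 codes in G4, and the share of all genes that did was not counted. Without G4, the median log2 fold change of the 50 was -0.37 in WT Treg against LNGFR and 0.72 in FOXP3 against WT Treg. Both comparisons also moved without E2, and WT Treg against LNGFR moved without G1, as given above.

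In FOXP3, F2 was the highest code in 33 of the 50, against 15.4% of all genes, and N3 the lowest in 28, against 29% of all genes. F2 was at least 2-fold above the mean log2 level of the other FOXP3 codes in 11 of the 50 (background 2.43%) and F1 in 6 (background 2.46%). F5 and N2 were so in 0 of the 50 (background 3.16% and 4.31%) and N3 in 3 (background 10.1%). Among LNGFR codes, G1 was at least 2-fold above the others in 6 of the 50 (background 25.5%) and at least 2-fold below them in 26 (52%, background 22.7%). G2 was at least 2-fold above in 9 (background 8.28%) and G3 in 18 (background 10.2%), both set against a mean that includes G1. No comparison between codes was tested, since each is 1 sample.

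**Figure D4:**
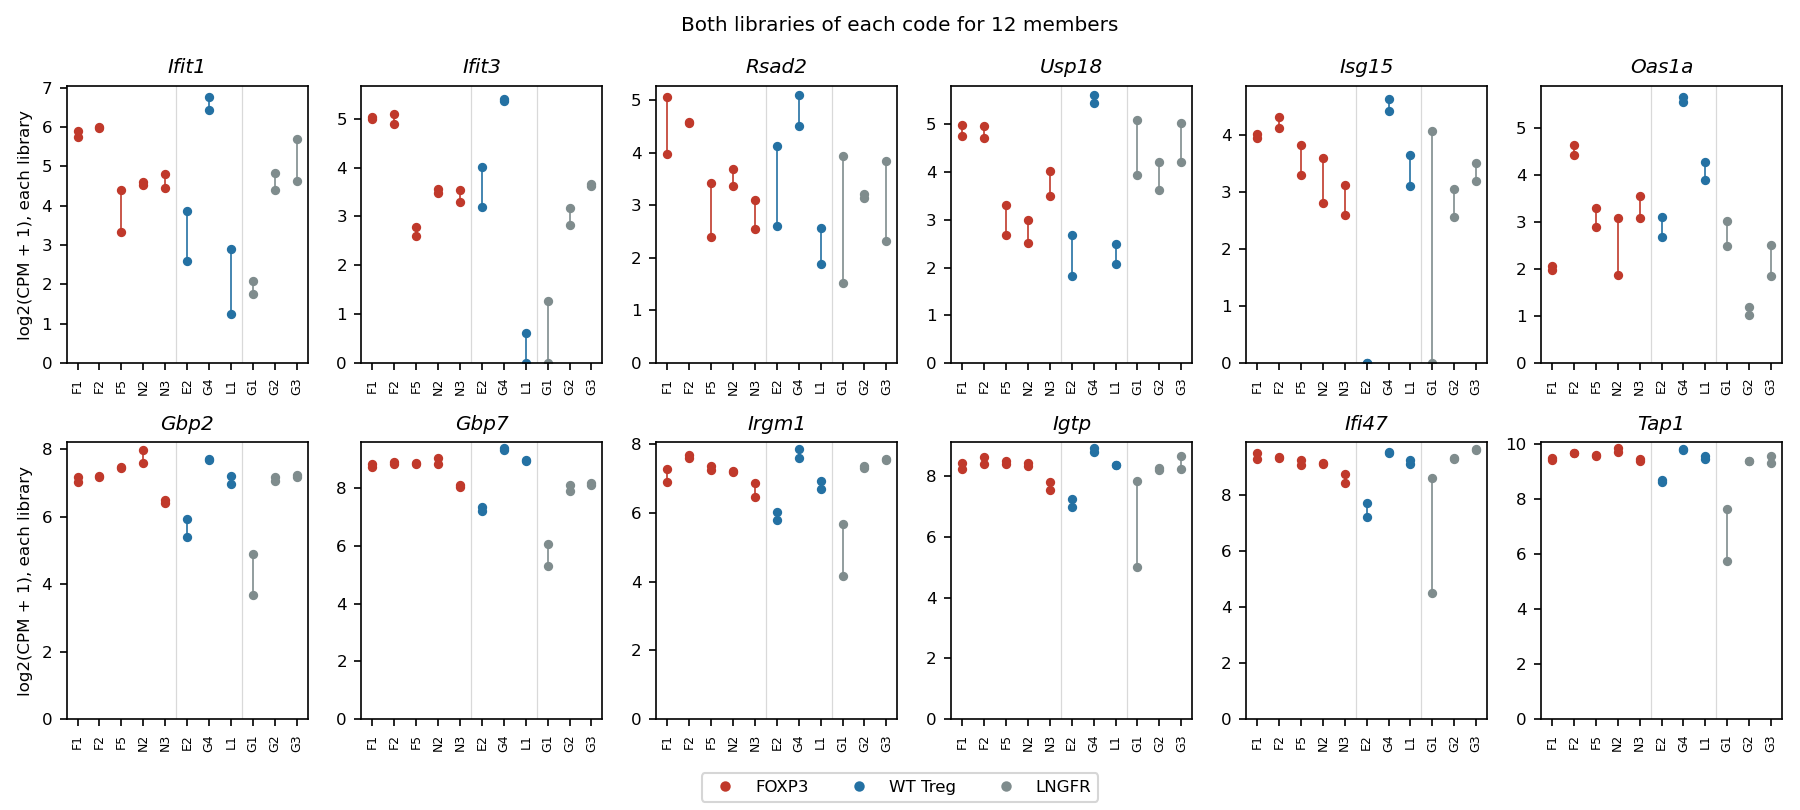
log2(CPM + 1) of 12 interferon-stimulated genes (y axes, 1 scale per gene) in both libraries of each code (x axis), coloured by group; a line joins the 2 libraries of a code. The libraries of G4 lie above those of L1 in every panel, and the longest line is that of G1 in every panel except Ifit1 and Oas1a.

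Since E2 and G1 held the weak libraries and N3 had the highest B-cell marker level, the comparisons were also fitted without these 3 codes, a choice made with earlier results of these data known. This leaves 4 FOXP3, 2 WT Treg and 2 LNGFR codes, and 10.7% of all genes tested were called in FOXP3 against LNGFR, 7.66% in WT Treg against LNGFR and 7.42% in FOXP3 against WT Treg. Of the 50 genes, 4 (8%) were called in FOXP3 against LNGFR, all higher. Gbp3 had a log2 fold change of 1.36 ± 0.13 (edgeR, adjusted p 5.49e-05), Ifi204 of 2.11 ± 0.30 (adjusted p 0.000823), Gbp7 of 0.75 ± 0.12 (adjusted p 0.00223) and Eif2ak2 of 0.72 ± 0.20 (adjusted p 0.0412). In WT Treg against LNGFR 5 (10%) were called. Gbp3 (1.57 ± 0.14, adjusted p 3.41e-05), Gbp7 (1.08 ± 0.14, adjusted p 0.000511), Eif2ak2 (1.04 ± 0.23, adjusted p 0.0161) and Samhd1, a phosphohydrolase that depletes nucleotides (0.52 ± 0.13, adjusted p 0.0275), were higher, and Ifi204 was lower (-2.999 ± 0.451, adjusted p 0.00144). The codes left out include E2, with the highest WT Treg level of Ifi204 (15.8 CPM), and G1, with the lowest LNGFR level (0.672 CPM). With all codes the log2 fold change of Ifi204 in WT Treg against LNGFR was -1.09 ± 1.09 (edgeR, adjusted p 0.673). Its level rests on 2 and 10 counts in the libraries of G4 and on 3 and 1 in those of L1. In FOXP3 against WT Treg 2 (4%) were called, Ifi204 higher (5.11 ± 0.41, adjusted p 3.75e-05) and Ifi44 lower (-3.51 ± 0.89, adjusted p 0.0311). The share of the 50 genes called was lower than that of all genes in both comparisons of FOXP3 and above it in WT Treg against LNGFR. In this fit alone, Gbp3, Gbp7 and Eif2ak2 were called higher in both FOXP3 and WT Treg than in LNGFR, in comparisons that share the LNGFR codes. Ifi204 was called higher in FOXP3 than in either. Of the codes left out, E2 lay within the LNGFR range for Gbp3 (59.2 CPM) and Gbp7 (155 CPM). N3 was the lowest FOXP3 code for each of these genes, and G1 the lowest LNGFR code for Gbp3, Gbp7 and Ifi204. With all codes, edgeR called 0 of the 50.

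Genes with an ISRE were set beside those without one. In FOXP3 against LNGFR, the median log2 fold change was 0.57 in the 19 with an ISRE and 0.02 in the 19 without, and 18 and 11 of them were above 0. For WT Treg against LNGFR it was 0.71 and -0.02, with 17 and 9 above 0. In FOXP3 against WT Treg it was -0.03 and 0.05, with 8 and 13 above 0. In G4, all 19 genes with an ISRE and all 19 without were above the mean of the other WT Treg codes, by a median of 1.31 and 0.87 on the log2 scale. In G1, the medians against the other LNGFR codes were -1.88 and -0.34, so the same split also separates this code from G2 and G3. Of the libraries of G1, only library 2 was weak, and library 1 held 2776945 counts, 3.85% of them on repeat-like gene models.

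Other genes of the pathway were read from lists not picked for how they moved. Of 20 interferon genes, only Ifng had enough counts to be tested. Ifng had 6.22, 5.03, 17.7, 8.72 and 6.42 CPM in FOXP3 codes, 0, 2.59 and 0.932 CPM in WT Treg codes and 43.0, 25.3 and 10.1 CPM in LNGFR codes. No read of it was counted in E2, where the limit is again 3.95 CPM. It was lower in WT Treg than in LNGFR by -4.07 ± 0.74 on the log2 scale (edgeR, adjusted p 0.0162), a call lost without L1 (adjusted p 0.12), without G2 (adjusted p 0.0746), with only WT Treg and LNGFR fitted (adjusted p 0.0715), with library 2 only (adjusted p 0.0631), with the digit of the code as a block (adjusted p 0.0642) and among codes of letter G (adjusted p 0.693). The value of -1.55 ± 0.52 in FOXP3 against LNGFR did not pass (adjusted p 0.264). WT Treg and LNGFR codes did not overlap, and F5 lay within the LNGFR range. Ifnb1, the gene of interferon-beta, had 2 counts in all libraries together. Of 10 genes of the interferon-gamma receptor, its signalling and feedback, 0 were called in any comparison. Ifngr1, a chain of the interferon-gamma receptor, averaged 430 CPM in FOXP3, 562 CPM in WT Treg and 406 CPM in LNGFR. None was called among the 13 tested sensing adaptors and kinases, 12 other GBP and IRG GTPases, 13 genes of MHC class I presentation and 47 further interferon-stimulated genes. At an unadjusted p under 0.05, 5 of these 47 passed in FOXP3 against LNGFR, 5 in WT Treg against LNGFR and 4 in FOXP3 against WT Treg, and 2, 6 and 4 of the 12 GTPases did, where 10.3%, 14.8% and 16.5% of all genes passed. Over the lists other than the interferon genes, 95 genes in all, DESeq2 called 0 higher and 1 lower in FOXP3 against LNGFR (2.65% of all genes in either direction), 3 higher and 5 lower in WT Treg against LNGFR (4.95%) and 3 higher and 4 lower in FOXP3 against WT Treg (7.19%). limma voom called 4 higher and 4 lower, 0 higher and 6 lower, and 6 higher and 4 lower in the same comparisons, where it called 6.78%, 5.61% and 6.89% of all genes.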

How the data were processed

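Poly(A) RNA of 1000 sorted cells per library was reverse transcribed and amplified by 18 cycles of PCR, and read pairs of 38 bases were sequenced, per the labels' protocols. The authors deposited raw read counts per gene symbol, 1 column for each of the 22 libraries, and 0 columns belonged to no sample. Per the submitters' processing notes, the tools were STAR 2.7.3a and featureCounts, with Subread 2.0.0, and the build was mm10, or GRCm38. How strand and reads with several matches were treated, and by which annotation reads were counted, is not given in these sources, so genes that share sequence or overlap can hold each other's reads.

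Counts of the 2 libraries of a code were summed, genes were kept by filterByExpr, and the 3 groups were fitted together with edgeR 4.0.16 (TMM, robust quasi-likelihood test, R 4.3.3), with Benjamini-Hochberg adjustment over all 15462 genes tested. SE is that of the log2 fold change. log2 CPM used a prior count of 2. DESeq2 1.42.0 and limma 3.58.1 (voom with sample weights) were alternatives, with other scalings, no filter, single libraries and codes left out. Symbols were matched to GENCODE M21 on GRCm38, and promoters and their letters come from RefSeq. The test was checked on simulated counts.

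The 50 members and all lists were chosen with earlier results of these data known. Values, per code or as group means, are given for the member with the smallest p in each role and comparison and for that with the highest CPM per kb in each role; others are said to be chosen after their values were seen, or are counted. No code occurs in more than 1 group. Some digits do, and a fit with the digit as a block and one of letter G alone were added after seeing the data. The vector and the human transgene were not analysed here.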

Additional observations from a re-analysis of the deposited data

Results flagged for a closer look

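In the FOXP3 group, the only one with enough codes for the check, 9 of the 50 genes had 1 code far from the other 4. The gap to the nearest code divided by the whole range was then above 0.71. For independent, normally distributed values this rule flags about 1 in 20. The share of all genes flagged was not counted, and most flags fall on F2 or N3, so the 9 cannot be read as an excess. Code F2 was far above the others for Irf9 (195 CPM, next 165 CPM, ratio 0.715), Ifih1 (37.6 CPM, next 22.1 CPM, ratio 0.74), Ifi203 (216 CPM, next 152 CPM, ratio 0.72) and Oasl2 (14.2 CPM, next 7.29 CPM, ratio 0.824). Code N3 was far below the others for Gbp7 (266 CPM, next 429 CPM, ratio 0.762), Igtp (202 CPM, next 321 CPM, ratio 0.756) and Psmb8 (732 CPM, next 952 CPM, ratio 0.842). N3 was far above them for Irf8 (412 CPM, next 76.0 CPM, ratio 0.898). Code F1 was far below the others for Gbp4 (324 CPM, next 392.4 CPM, ratio 0.885). N3 also had the highest B-cell marker level of the group, and its part in these values was not tested.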

How the results depend on the processing

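edgeR called 0 of the 50 genes in each direction of each comparison, and 0 with other scalings, the non-robust fit, 2 groups at a time, without repeat-like gene models and with either library alone. Shares of all genes called in the same direction stand in brackets. In FOXP3 against LNGFR, 2 were higher without the low-count filter (0.394%), 1 with DESeq2 (1.44%), 3 with voom (3.38%) and 4 without E2, G1 and N3 (6.61%); leaving out single codes gave 0 to 0. In WT Treg against LNGFR, 2 were higher without the filter (1.53%), 3 with DESeq2 (2.6%), 2 with voom (2.88%), 1 without the 3 weak libraries (1.05%) and 4 without E2, G1 and N3 (4.19%), where 1 was lower (3.47%); leaving out single codes gave 0 to 1 (Oas1a, without E2, 0.915%). In FOXP3 against WT Treg, 2 were higher without the filter (0.861%), 1 with voom (2.28%), 1 without the weak libraries (0.195%) and 1 without E2, G1 and N3 (3.85%), and leaving out single codes gave 0 to 2 (Ifi204 without E2, 0.199%; Mx1 and Rtp4 without G4, 0.322%). There, 2 were lower without the filter (6.84%) and 1 each with DESeq2 (5.79%), with voom (4.61%) and without E2, G1 and N3 (3.57%), and leaving out single codes gave 0 to 1 (Ifi44, without G4, 6.07%).

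Of the log2 fold changes of named genes, 16 values changed sign. In FOXP3 against WT Treg, leaving out single codes gave -0.41 (without E2) to 0.17 (without G4) for Ifnar2, -0.69 (without L1) to 2.19 (without G4) for Usp18 and -0.88 (without E2) to 0.19 (without G4) for Iigp1. In WT Treg against LNGFR it gave -0.47 (without G4) to 0.87 (without E2) for Isg15. Voom gave -0.0054 for Irf8 and 0.54 for Usp18 in FOXP3 against WT Treg. Irf8 ranged there from -0.00094 (without N3) to 1.65 (without G4) and was -0.31 without E2, G1 and N3. Psmb8 in FOXP3 against WT Treg was -0.10 without the weak libraries, -0.032 without E2, G1 and N3 and, leaving out single codes, -0.098 (without E2) to 0.79 (without G4). In WT Treg against LNGFR it was 0.20 without E2, G1 and N3 and 0.33 with library 2 only. None of these genes passed with its sign changed. The causes were not tested. Codes of different groups with the same digit deviated from their group means with correlations of -0.287 to 0.0982 across genes in 9 pairs. In 30 pairs of different digits the range was -0.395 to 0.401, and both ends involve G1, which holds 1 weak library. Such values cannot decide whether the digits pair codes, and what the digits stand for was not stated. With the digit as a replicate block, 0 of the 50 were called in each comparison, and 17, 16 and 1 of all genes in FOXP3 against LNGFR, WT Treg against LNGFR and FOXP3 against WT Treg; G4 and F5, alone in their digits, then add nothing to the comparison. The block gave 0.060 for Ifnar2 and 2.48 for Usp18 in FOXP3 against WT Treg and -0.96 for Isg15 in WT Treg against LNGFR, and medians of the 50 of 0.42, -0.32 and 0.55 in the 3 comparisons. Low depth in E2 and G1 limits what their zeros and low counts can show.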

Other observations

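Among interferon-stimulated genes outside the 50, Gbp11, a guanylate-binding protein chosen after its values were seen, had 1.53, 6.33, 3.23, 3.11 and 4.90 CPM in the FOXP3 codes F1, F2, F5, N2 and N3, 13.2, 1.78 and 2.13 CPM in the WT Treg codes E2, G4 and L1, and 8.74, 51.9 and 21.0 CPM in the LNGFR codes G1, G2 and G3. Every FOXP3 code was below every LNGFR code, and E2 lay within the LNGFR range. Its log2 fold change was -2.83 ± 0.63 (SE) in FOXP3 against LNGFR (edgeR, adjusted p 0.0708) and -2.79 ± 0.84 in WT Treg against LNGFR (adjusted p 0.162), opposite in sign to that of Gbp3 in both comparisons, which share the LNGFR codes.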
